A study of Homo sapiens with 5 samples.

Results

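The genes described here are the 105 genes of human chromosome 18 that were read at a mean level above 5 (log2 scale) over all 5 arrays of the series, out of 264 chromosome 18 genes of any level and 18417 genes on the array. Of the chromosome 18 genes above that level, 5 were set aside (BCL2, PMAIP1, TYMS, SCARNA17 and SNORD58A). Each gene is represented by the probe set with the highest mean among those that carry exactly 1 gene symbol. Of the 105 genes, 101 code for proteins, 3 are long non-coding RNA genes (TYMSOS, ATP8B1-AS1 and ZNF407-AS1) and 1 is a transcribed pseudogene (ZNF271P). The short arm holds 29 of them and the long arm 76. The choice was made with the difference between the groups already known, so that difference is described for these genes and not tested on them as a set.

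The arrays came from Nalm6, a permanent human line grown from a B-precursor lymphoblastic leukaemia. There were 2 clones that express a nonsense short hairpin RNA (control shRNA) and 3 clones that express a shRNA against MondoA (MondoA shRNA), with 1 array for each clone. Every clone grew in RPMI medium that held 200 mg/dl glucose and 20% serum. Labelling started from 200 ng of total RNA. MondoA, the product of MLXIP on another chromosome, is a transcription factor that responds to glucose metabolites. Each array is 1 clone, so a difference between groups and a difference between clones cannot be told apart beyond the spread among these 5. Markers of B-cell precursors were bright in the line (7 of 8 measured markers above 5, with a median of 9.15). The markers of T, myeloid, erythroid cells and fibroblasts were all below 5.

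Chromosome 18 is a small, gene-poor chromosome whose genes belong to unrelated pathways. In lymphoid cells it is best known for BCL2, the restrainer of apoptosis that is joined to the immunoglobulin heavy chain locus in follicular lymphoma. It also carries MALT1, a protease of antigen receptor signalling, TCF4, an E protein of B-cell and dendritic cell development, and SMAD2 and SMAD4, the signal carriers of transforming growth factor beta.

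The promoters of 4 of these genes are shown because they set the 3 genes with the lowest values relative to control (RAB31, MIB1 and NPC1) beside VAPA, the member that follows RAB31 in gene order. Capitals mark CACGTG, the E-box core, which is the sequence that MondoA and its partner MLX are known to bind, usually as a spaced pair. Each sequence is the 250 bases upstream of a start site from RefSeq, build GRCh38.p14, read 5′ to 3′ on the strand of the gene. The window of RAB31 is chr18:9708051-9708300 (plus strand), that of MIB1 is chr18:21740542-21740791 (plus strand), that of NPC1 is chr18:23586507-23586756 (minus strand) and that of VAPA is chr18:9913766-9914015 (plus strand).
RAB31: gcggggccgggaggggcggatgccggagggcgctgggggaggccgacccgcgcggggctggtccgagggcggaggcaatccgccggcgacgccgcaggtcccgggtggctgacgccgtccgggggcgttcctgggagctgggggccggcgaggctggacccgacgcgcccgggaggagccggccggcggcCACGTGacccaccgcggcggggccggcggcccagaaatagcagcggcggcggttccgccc
MIB1: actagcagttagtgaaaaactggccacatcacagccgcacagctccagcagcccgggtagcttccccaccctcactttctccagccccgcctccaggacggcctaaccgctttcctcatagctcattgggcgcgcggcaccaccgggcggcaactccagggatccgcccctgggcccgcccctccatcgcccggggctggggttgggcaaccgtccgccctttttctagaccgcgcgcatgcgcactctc
NPC1: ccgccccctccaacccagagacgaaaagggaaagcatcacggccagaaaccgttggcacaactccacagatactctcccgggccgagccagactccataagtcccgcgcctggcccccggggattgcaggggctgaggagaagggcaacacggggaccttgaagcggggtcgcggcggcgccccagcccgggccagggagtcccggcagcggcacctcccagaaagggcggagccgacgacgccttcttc
VAPA: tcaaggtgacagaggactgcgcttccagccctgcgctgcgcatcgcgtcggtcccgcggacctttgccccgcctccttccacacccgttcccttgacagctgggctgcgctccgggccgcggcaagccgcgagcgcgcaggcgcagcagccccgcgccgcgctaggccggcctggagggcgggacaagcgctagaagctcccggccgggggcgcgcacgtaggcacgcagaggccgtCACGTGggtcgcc

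The windows of RAB31 and VAPA each held 1 E-box, ending 55 and 8 bases before the start site, and those of MIB1 and NPC1 held none. A RefSeq window was found for 94 of the 105 genes, taking the first window listed for a gene. The E-box (CACGTG, its own reverse complement) was in 7 of the 94 windows, or 7.45%, against 6.49% of 27305 genes of the whole genome. The 7 genes were RAB31, VAPA, FAM210A, RMC1, TAF4B, MAPRE2 and SEC11C, with a median difference of -0.33, against -0.45 for the other members with a window. No window of these genes held a pair of exact CACGTG copies spaced by 5 bases. Pairs of inexact copies were not searched, and the share of exact pairs over all genes was not formed. The GC box (GGGCGG, both strands) was in 71 of the 94 windows, or 75.5%, against 42.3% of all genes, and the CCAAT box (CCAAT, both strands) was in 29.8% against 33.0%. TATAAA (both strands) was in 2 windows, those of CABLES1 and RNF138, against 11.1% of all genes. The median GC content was 66.6% in the members and 58% in all genes. The members are expressed genes while the genome-wide set holds silent ones too, and these matches are descriptions of sequence and not of binding.

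Expression is given as the authors' RMA values (robust multi-array average, which corrects background, equalises the arrays and merges the probes that make up each probe set), taken as log2. Differences are MondoA shRNA minus control shRNA. Each difference rests on 2 control and 3 MondoA shRNA arrays, whose single values show the spread, and SE is the standard error from limma, a linear model fitted to all genes with shared information on their variance. The targeted gene did not separate the groups. MLXIP read 6.42 in both controls and 6.42, 6.47 and 6.29 in MondoA shRNA clones 1, 2 and 3, a difference of -0.03 (95% interval -0.21 to 0.16 by limma). The groups overlap, and directions below refer to the clone labels.

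All 105 genes had a lower mean in the arrays labelled MondoA shRNA. The share was 45.4% among the 7337 genes of other chromosomes above the same level and 45.7% among all genes. A gene equal in all arrays could enter these shares as lower through rounding. The median difference of the 105 genes was -0.41, which on a linear scale is 75.2% of the control level. The middle of their distribution ran from -0.56 (lower quartile) to -0.24 (upper quartile). In 75 genes every MondoA shRNA array lay below both control arrays. That held for 8.31% of the genes of other chromosomes above the same level and for 5.18% of all genes. On chromosomes 13, 21 and 22, taken for comparison, the medians were 0.01 (chromosome 13, 132 genes), 0.00 (chromosome 21, 73 genes) and 0.03 (chromosome 22, 196 genes). No single gene passed the test over all genes. By limma with Benjamini-Hochberg adjustment over 18417 genes, 0 of 105 members and 0% of all genes had an adjusted p under 0.05, and the lowest adjusted p of a member was 0.435. Leaving out control array 1 or 2 gave 752 or 454 genes, with 0 and 1 members among them. These fits hold 1 control array, which is assumed to vary like the MondoA shRNA clones, so their spread comes from those clones alone. At an unadjusted p under 0.05, 40 members were lower, against 2.18% of all genes and 3.37% of the genes of other chromosomes above 5. With each array centred on the genes of other chromosomes, 20 members passed, all lower, against 0.652% of all genes that passed as lower. Centring also raised the weight of shared variance in limma (prior degrees of freedom 8.53 against 0.56). The part of this in the calls, and in every p with centred arrays below, was not tested. Among these 20 were RAB31, MIB1, NPC1, TGIF1, PTGR3, ACAA2, RTTN, MEX3C, CEP192, RMC1, TCF4, ZNF24, SMAD2, LDLRAD4, PPP4R1, ATP8B1-AS1, ATP5F1A, TIMM21 and ELP2.

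**Figure D1:**
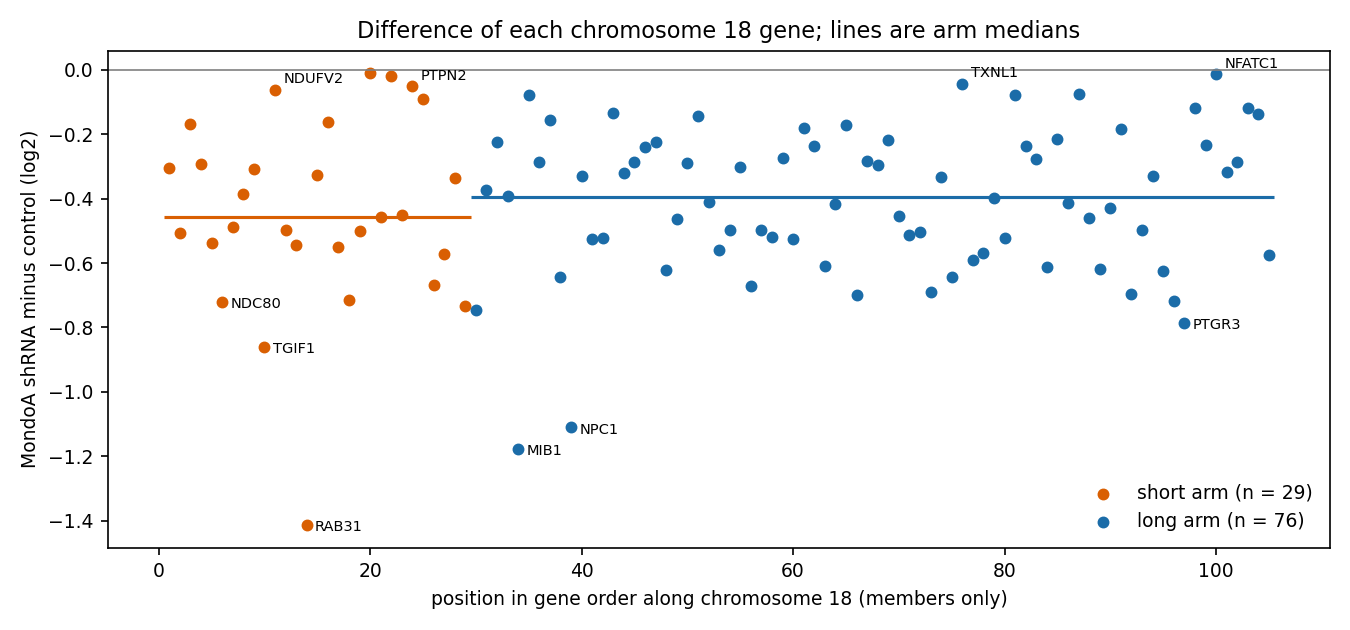
Difference between groups (MondoA shRNA minus control, log2) of the 105 chromosome 18 genes, placed by their order along the chromosome. Each point is 1 gene, colours give the arm and horizontal lines the arm medians of -0.46 and -0.40. RAB31, MIB1 and NPC1 lie below -1 and every point lies below 0.

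The arms were alike in direction and overlapped in size. The 29 short-arm genes had a median difference of -0.46 and a range from -1.41 (RAB31) to -0.01 (TUBB6). The 76 long-arm genes had a median of -0.40 and a range from -1.18 (MIB1) to -0.01 (NFATC1). All MondoA shRNA arrays lay below both controls in 23 short-arm (79.3%) and 52 long-arm (68.4%) genes. That held for 8.31% of the genes of other chromosomes above 5. Cut by gene order, the medians were -0.49 from USP14 to VAPA, -0.45 from APCDD1 to ANKRD30B, -0.35 from the start of the long arm to TPGS2, -0.50 from PIK3C3 to ATP8B1-AS1 and -0.32 from NEDD4L to ADNP2. Small and large differences stood side by side in this order. RAB31 (-1.41) lies between PPP4R1 (-0.54) and VAPA (-0.33) among the members, and NDUFV2 (-0.06) between TGIF1 (-0.86) and TWSG1 (-0.50).

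The genes were graded by clone as well as by group. Relative to each gene's own 5-array mean, the median deviation of the 105 genes was 0.34 in control array 1 and 0.14 in control array 2. It was 0.00 in MondoA shRNA array 2, -0.13 in array 3 and -0.33 in array 1. The genes of other chromosomes above 5 had medians of 0.00, -0.01, 0.04, 0.00 and -0.05 in the same order of arrays. Those of chromosome 13 alone had 0.01, -0.02, 0.07, 0.00 and -0.10. Control array 1 held the highest value of the 5 arrays, alone or tied, in 81 of the 105 genes. MondoA shRNA array 1 held the lowest in 77. The shares were 25.5% and 38.5% among the genes of other chromosomes above 5, with ties given to the first array. The full order, control 1, control 2, then MondoA shRNA 2, 3 and 1, was seen in 38 members, or 36.2%, and in 1.79% of the genes of other chromosomes above 5. The short arm (0.36, 0.13, -0.01, -0.15 and -0.30 in that order of arrays) and the long arm (0.31, 0.15, -0.00, -0.12 and -0.35) followed the same order.

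Order within a group does not enter the difference between groups. Control array 1 exceeded control array 2 in 87 of the 105 genes, against 55.5% of the genes of other chromosomes above 5 (36.2% of all genes), with a median gap of 0.16 against 0.02. MondoA shRNA array 1 was the lowest of its group in 77 members, against 52.1% of the other genes (29.1% of all genes). Array 2 was the highest of its group in 72, against 50.2% (29.7% of all genes). On chromosome 13 (132 genes), control array 1 exceeded control array 2 in 88 and MondoA shRNA array 1 was the group's lowest in 88. These counts were 46 and 36 on chromosome 21 (73 genes), and 84 and 89 on chromosome 22 (196 genes). Measured against the mean of the controls, the members' median was -0.59 in MondoA shRNA array 1, -0.24 in array 2 and -0.39 in array 3. Array 1 lay below both controls in 101 genes, array 3 in 91 and array 2 in 78. The median difference between groups was -0.30 when control array 1 was dropped and -0.32 when MondoA shRNA array 1 was. Without MondoA shRNA array 1, 98 of 105 genes were lower. For these 98 and for the counts of genes below both controls, shares over other genes were not formed. Members lower at an unadjusted p under 0.05 by limma numbered 11, or 10.5%, without control array 1, where 6.19% of all genes were. Without control array 2 there were 25 (against 4.26% of all genes). Without MondoA shRNA array 1, 2 or 3 there were 25 (1.73%), 49 (3.36%) and 22 (1.84%).

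**Figure D2:**
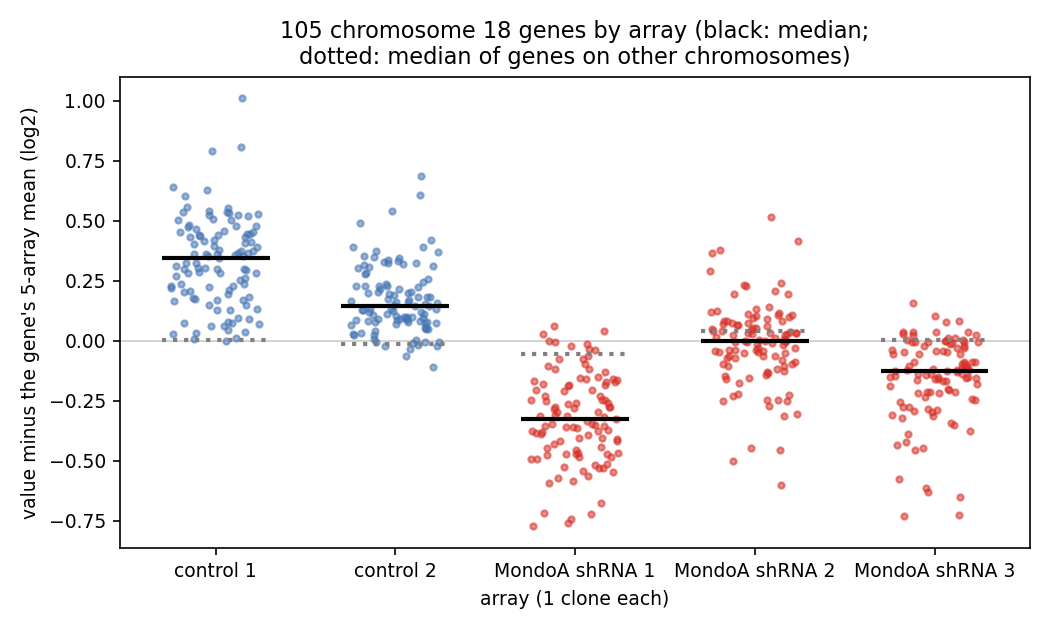
Value of each of the 105 genes in each array minus that gene's mean over the 5 arrays (log2), with 1 column of points per clone. Black bars are medians over the genes (0.34, 0.14, -0.33, 0.00 and -0.13 from left to right) and dotted bars are the medians of genes on other chromosomes, which lie between -0.05 and 0.04.

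RAB31, a small GTPase of the trans-Golgi and endosome route, stood farthest below the chromosome median. It read 6.74 and 6.41 in control and 5.29, 5.13 and 5.08 in MondoA shRNA clones 1, 2 and 3. The groups do not overlap, and the MondoA shRNA clones lie close together without the order of the chromosome as a whole. The difference was -1.41 ± 0.13 (SE), or 37.5% of control, with an adjusted p of 0.435 by limma (0.000252 with centred arrays) and a range from -1.58 to -1.25 with 1 array left out. The related gene RAB12, on the same arm but dimmer than the threshold, differed by -0.22 (-0.02 without control array 1). RAB27B on the long arm, at a mean of 2.82, differed by -0.10 (-0.03 without control array 1).

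MIB1, an E3 ubiquitin ligase that lets Notch ligands signal, read 6.80 and 6.60 in control and 5.76, 5.54 and 5.27 in the MondoA shRNA clones. Here clone 3 was the lowest and clone 1 the highest of the MondoA shRNA group, whereas over the chromosome clone 1 was the lowest and clone 2 the highest. The difference was -1.18 ± 0.18 (SE), or 44.2% of control. NPC1, the lysosomal cholesterol exporter, read 7.49 and 7.24 in control and 5.96, 6.25 and 6.56 in the MondoA shRNA clones. Its difference was -1.11 ± 0.22 (SE), or 46.3% of control. These were the 3 members with a difference beyond -1, and none of them passed the adjusted threshold by limma (0.833 for MIB1 and for NPC1) except with centred arrays (0.00254 and 0.00276).

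Next in order came TGIF1, a homeodomain corepressor of SMAD signalling, which read 8.97 and 8.72 in control and 7.55, 8.37 and 8.02 in the MondoA shRNA clones. It was the member with most probe sets, and 3 further ones above 5 gave -0.79, -0.75 and -0.84 against -0.86. The dimmer one left, at a mean of 4.52, gave -0.12. Signal shared among these probe sets was not tested. PTGR3, a prostaglandin reductase, read 7.51 and 7.54 in control and 6.74, 7.01 and 6.48 in the MondoA shRNA clones, a difference of -0.79. In both genes the groups stood apart. ANKRD30B (-0.73), NDC80 (-0.72), ZNF407-AS1 (-0.72) and CHMP1B (-0.71) were also among the 10 lowest differences. ANKRD30B has close relatives on other chromosomes, and signal shared with them was not tested. NDC80, the kinetochore subunit that binds microtubules, read 7.07 and 6.85 in control and 6.27, 6.56 and 5.90 in the MondoA shRNA clones, lowest in array 3. In CHMP1B, a subunit of the membrane-cutting ESCRT machinery, MondoA shRNA array 2 equalled control array 2 at 7.79, so its groups touch.

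**Figure D3:**
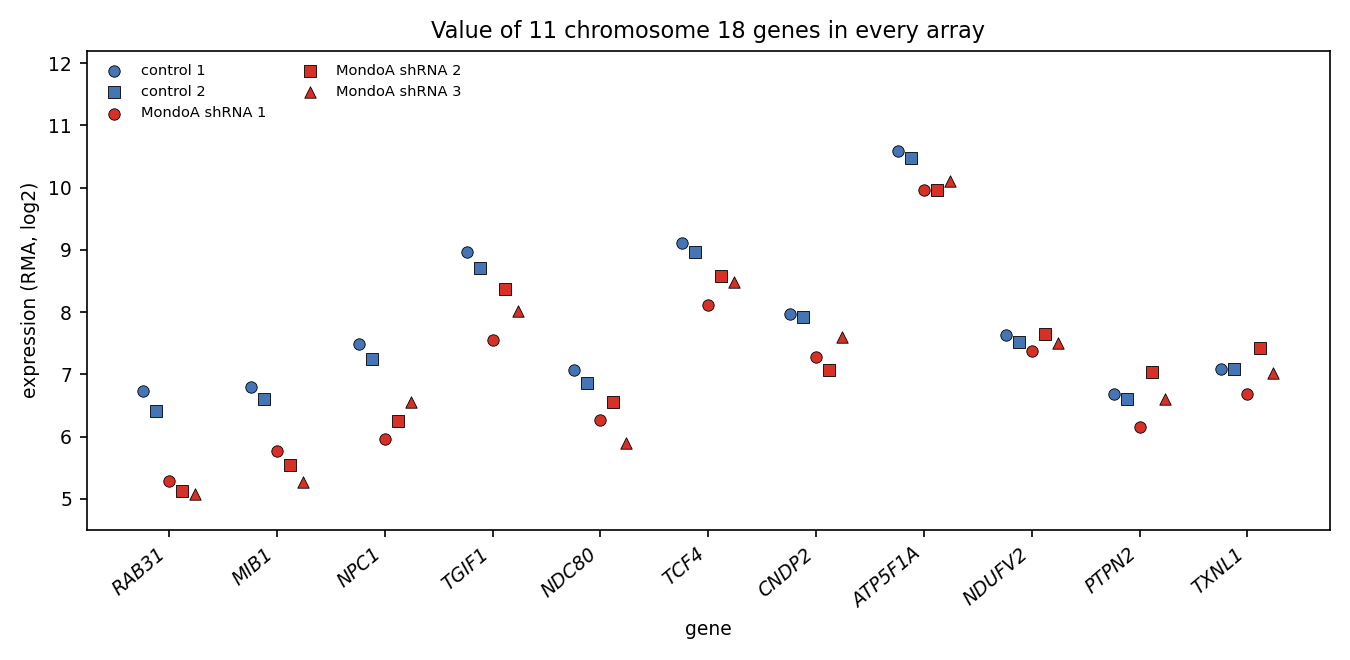
RMA value (log2) of 11 chromosome 18 genes in every array, with blue symbols for the 2 control clones and red symbols for the 3 MondoA shRNA clones. In the genes from RAB31 to ATP5F1A every red symbol lies below both blue ones, while in NDUFV2, PTPN2 and TXNL1 they overlap.

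At the other end, 10 members differed by less than 0.1 in size. Of these, TUBB6 (-0.01), NFATC1 (-0.01), PRELID3A (-0.02), ZCCHC2 (-0.07), NEDD4L (-0.08) and CABLES1 (-0.08) had means below 6. RAB31 (mean 5.73) and MIB1 (mean 5.995), which had the largest differences, also had means below 6. Their control means were 6.58 and 6.70, and their lower values in the MondoA shRNA clones bring the mean over 5 arrays down. The remaining 4 of the 10 were brighter. NDUFV2, a core subunit of respiratory complex I, read 7.63 and 7.51 in control and 7.38, 7.64 and 7.51 in the MondoA shRNA clones. Its other probe set gave -0.04 against -0.06, and whether that probe set reads NDUFV2 alone was not tested. PTPN2, a tyrosine phosphatase that restrains JAK and STAT signalling, read 6.68 and 6.61 in control and 6.15, 7.03 and 6.61 in the MondoA shRNA clones. TXNL1, a thioredoxin-like protein of the proteasome, read 7.09 in both controls and 6.68, 7.42 and 7.02 in the MondoA shRNA clones. SEH1L, a nucleoporin that also serves in amino acid sensing, read 7.79 and 7.64 in control and 7.49, 7.69 and 7.68 in the MondoA shRNA clones. In PTPN2 and TXNL1 the spread among the MondoA shRNA clones, with array 1 lowest and array 2 above both controls, was wider than the difference between groups. Without MondoA shRNA array 1 their differences turned positive, at 0.17 and 0.14. The 95% intervals by limma were -0.94 to 0.84 for PTPN2, -0.78 to 0.70 for TXNL1, -0.35 to 0.22 for NDUFV2 and -0.36 to 0.18 for SEH1L. Those of the first 2 genes contain the chromosome median of -0.41, and those of NDUFV2 and SEH1L do not.

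Around the chromosome median, 63 of the 105 genes lay within 0.2 of it, 21 were lower by more than that and 21 were higher by more than that. The difference moved with the level of the gene. Genes between 5 and 6 had a median of -0.20 (24 genes), those between 6 and 7 -0.41 (35), those between 7 and 8 -0.50 (31) and those above 8 -0.45 (15). Below the threshold the median was -0.07 between 4 and 5 (21 genes), -0.04 between 3 and 4 (29 genes) and 0.00 at 3 or less (102 genes). Genes of other chromosomes had medians between 0.00 and 0.02 in each of these bands. Whether the dim genes were detected was not assessed, and the part of background signal in their small differences was not tested. The members just inside the threshold were TUBB6 (mean 5.01) and PRELID3A (5.02), and those just outside were ZBTB14 (4.93, difference -0.20, or -0.04 without MondoA shRNA array 1) and BOD1L2 (4.82, difference 0.09, or -0.0030 without control array 1). Tied values occurred in 20 members, as in PRELID3A, where 4 arrays read 5.01.

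**Figure D4:**
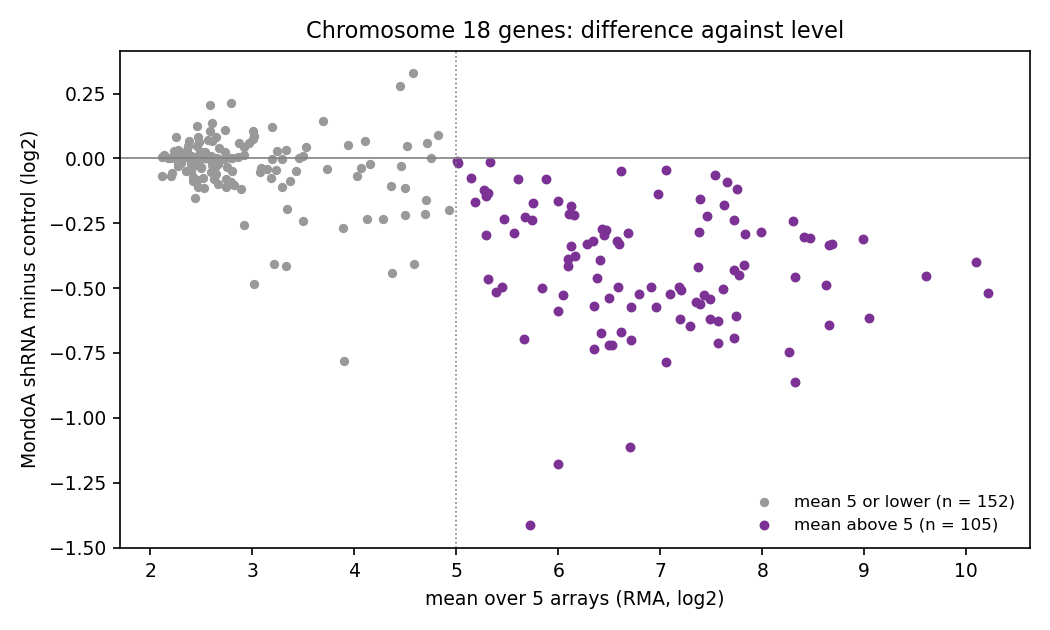
Difference between groups (log2) against the mean level over 5 arrays (log2) of chromosome 18 genes, in purple for the 105 genes above a mean of 5 and in grey for dimmer genes. All purple points lie below 0, and at a mean of 3 or less the grey points spread evenly about 0.

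Probe sets that the choice of genes did not use went the same way where they were bright. Of 12 further probe sets of the members, 6 read above 5 and all 6 were lower, from -0.84 to -0.04. Several of these 6 belong to TGIF1. For SMCHD1 the further probe set gave -0.47 against -0.49, and for TTC39C -0.09 against -0.33. Of the dimmer ones, only those of IER3IP1 (mean 2.36, difference 0.02) and PHLPP1 (mean 2.03, difference 0.10) were higher. SMAD2 had a dimmer one (mean 4.85) that read 6.05 and 5.35 in control and 3.67, 4.51 and 4.66 in the MondoA shRNA clones, a difference of -1.42 against -0.61 for the probe set kept. Probe sets that name several genes, all on chromosome 18, numbered 4 above 5, and all 4 were lower, with a median of -0.17. They share their arrays, and some of their transcripts, with the members.

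The members were grouped by role, and the lists overlap in some genes. A gene is called separated where every MondoA shRNA array lay below both controls. That held for 71.4% of all members and for 8.31% of the genes of other chromosomes above 5. The counts of separated genes in the lists were not tested against these shares. In the SMAD and transforming growth factor beta list, 5 of 6 listed genes were members. All 5 had the MondoA shRNA arrays below both controls, with a median of -0.57. SMAD2, a receptor-activated signal carrier, read 8.28 and 7.94 in control and 7.35, 7.61 and 7.54 in the MondoA shRNA clones, a difference of -0.61. SMAD4, the shared partner, differed by -0.51, the inhibitor gene LDLRAD4 by -0.57 and the extracellular modulator gene TWSG1 by -0.50. SMAD7, the inhibitory member, was too dim to be included and differed by -0.16.

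The transcription factor list held 6 members among 24 genes, with a median of -0.60 and 5 of them separated. TCF4 read 9.11 and 8.97 in control and 8.11, 8.59 and 8.48 in the MondoA shRNA clones, a difference of -0.64 that follows the clone order of the chromosome. The zinc finger gene ZNF24 (-0.62) and the homeodomain gene ADNP2 (-0.57) were close to it, and TAF4B, a subunit of TFIID variants, differed by -0.13 and NFATC1 by -0.01 at levels near 5. The 18 dimmer genes of the list had a median of -0.07. Chromatin genes (7 members of 10) were all separated, with a narrow range from -0.28 to -0.52. MBD2, which binds methylated DNA, read 8.88 and 8.83 in control and 8.47, 8.73 and 8.37 in the MondoA shRNA clones. SMCHD1, which maintains the silent X chromosome, read 9.06 and 8.78 in control and 8.44, 8.31 and 8.54 in the MondoA shRNA clones, with array 2 the lowest.

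Genes of lymphocyte and immune signalling (5 members of 11) had the median closest to 0, at -0.24, and 3 were separated. Next to TCF4 these were MALT1 (-0.24), the SRC-family kinase gene YES1 (-0.29), PTPN2 and NFATC1. The means of MALT1, YES1 and NFATC1 were 5.74, 5.29 and 5.33, and members between 5 and 6 had a median of -0.20. The part of level in the median of this list was not tested. MALT1 read 5.92 and 5.84 in control and 5.39, 5.81 and 5.73 in the MondoA shRNA clones, with arrays 2 and 3 close to the controls. The kinase and phosphatase list (9 members of 13) had a median of -0.32 and 6 separated genes. PPP4R1, a regulatory subunit of phosphatase 4, read 7.92 and 7.70 in control and 7.07, 7.31 and 7.43 in the MondoA shRNA clones, and PIK3C3, the lipid kinase of autophagy, differed by -0.67. CABLES1 and RIOK3 differed by -0.08 and -0.16.

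Vesicle traffic held the largest number of members (15 of 18 genes), with a median of -0.50 and 10 separated genes. LMAN1, the cargo receptor between endoplasmic reticulum and Golgi, read 9.48 and 9.35 in control and 8.45, 9.01 and 8.94 in the MondoA shRNA clones, a difference of -0.61. VPS4B, the ATPase that recycles ESCRT subunits, read 8.01 and 7.95 in control and 7.64, 7.50 and 7.50 in the MondoA shRNA clones. Its difference of -0.43 ± 0.06 (SE) was near the chromosome median with a small spread among clones. RMC1 (-0.64), NAPG (-0.55), EPG5 (-0.50) and WDR7 (-0.59) lay below the median, and SEC11C (-0.28) and IER3IP1 (-0.24) above it. SEC11C read 6.72 and 6.55 in control and 5.94, 6.59 and 6.56 in the MondoA shRNA clones, so that array 1 alone stood below both controls.

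The list of lipid and small-molecule metabolism (11 members of 16) had a median of -0.50 and 8 separated genes, led by NPC1 and PTGR3. CYB5A, the cytochrome that passes electrons to lipid desaturases, read 8.91 and 8.85 in control and 8.19, 8.97 and 8.49 in the MondoA shRNA clones, with array 2 above both controls. Its difference was -0.33, or -0.15 without MondoA shRNA array 1 and -0.54 without array 2. CNDP2, a dipeptidase, read 7.97 and 7.92 in control and 7.28, 7.07 and 7.61 in the MondoA shRNA clones, with array 2 the lowest. KDSR, of sphingolipid synthesis, differed by -0.62. Of the mitochondrial genes 10 of 11 were members, with a median of -0.46 and 7 separated. ATP5F1A, the alpha subunit of ATP synthase and the brightest member of all, read 10.58 and 10.48 in control and 9.96, 9.96 and 10.11 in the MondoA shRNA clones. Its difference was -0.52 ± 0.07 (SE). ME2, the malic enzyme of the matrix, differed by -0.45, the fatty acid thiolase gene ACAA2 by -0.70, the haem synthesis gene FECH by -0.57 and the protease gene AFG3L2 by -0.46, against -0.06 for NDUFV2.

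For mitosis, centrosome and DNA repair, 7 of 12 genes were members, with a median of -0.37 and 6 separated. CEP192, which recruits mitotic kinases to the centrosome, read 7.10 and 6.94 in control and 6.10, 6.55 and 6.40 in the MondoA shRNA clones. RTTN, of centriole assembly, differed by -0.70, the spindle genes HAUS1 and SKA1 by -0.27 and -0.22, and MAPRE2, a protein of growing microtubule ends, by -0.24 (-0.16 without MondoA shRNA array 1). NDC80 and SKA1 serve the same attachment of kinetochores to microtubules, and their differences of -0.72 ± 0.24 and -0.22 ± 0.12 (SE) were not tested against each other. RNA processing and translation (10 members of 14) had a median of -0.31 and 5 separated genes. NARS1, the asparaginyl-tRNA synthetase, read 10.50 and 10.17 in control and 9.78, 9.97 and 10.06 in the MondoA shRNA clones. Its difference was -0.40, or -0.23 without control array 1. THOC1, of the mRNA export complex, differed by -0.51, and RPRD1A, which binds the tail of RNA polymerase II, by -0.41 with a wide SE of 0.33 (-0.15 without MondoA shRNA array 1). The spliceosome genes SNRPD1 and TXNL4A differed by -0.22 and -0.12, each with MondoA shRNA array 2 above both controls. RPL17 (-0.17) has many processed copies in the genome, so its value is uncertain.

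Ubiquitin and proteasome genes (7 members of 13) had a median of -0.45 and 6 were separated. USP14, a deubiquitinase of the proteasome, read 8.77 and 8.54 in control and 8.01, 8.52 and 8.51 in the MondoA shRNA clones, with arrays 2 and 3 just below control array 2. Its difference of -0.31 was -0.14 without MondoA shRNA array 1 and -0.19 without control array 1. RNF138, a ligase of DNA end resection, differed by -0.29 (-0.16 without control array 1), MEX3C by -0.69, PIAS2 by -0.52 and the proteasome assembly gene PSMG2 by -0.45. The cytoskeleton and adhesion list had few members (5 of 22) and a median of -0.30, with 2 separated. MYL12B, a regulatory light chain of myosin, read 9.27 and 9.08 in control and 8.83, 8.99 and 8.77 in the MondoA shRNA clones. Its near-identical neighbour MYL12A, at a mean of 3.89, differed by -0.27, and signal shared between them was not tested. TPGS2, of tubulin polyglutamylation, differed by -0.30, or by -0.14 without MondoA shRNA array 1 and -0.20 without control array 1. In none of the 12 lists did a member pass the adjusted threshold by limma, and each list's median lay between -0.24 and -0.60, against 0.00 over all genes. The 18 members outside the lists included the sugar transferase gene GALNT1 (-0.29), the zinc transporter gene SLC39A6 (-0.56) and the methyltransferase gene METTL4 (-0.54).

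**Figure D5:**
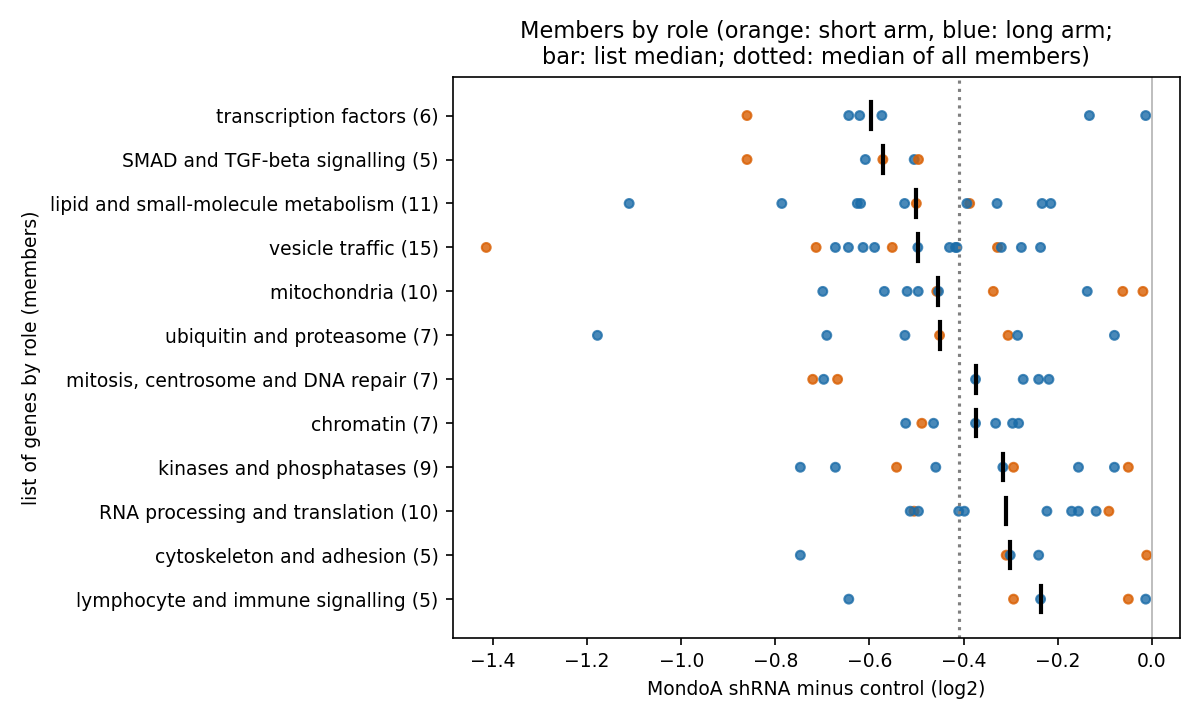
Differences between groups (log2) of the members in 12 lists by role, with 1 point per gene, orange for the short arm and blue for the long arm. Bars are list medians, from -0.60 (transcription factors) to -0.24 (lymphocyte and immune signalling), and the dotted line is the median of all 105 genes at -0.41.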

How the data were processed

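RNA of 5 Nalm6 clones was measured on 1 Affymetrix whole-transcript array each. The deposited log2 values are RMA summaries per probe set from Affymetrix Expression Console 1.1, per the submitters' processing notes. The logarithm base is not given in the sources used here and was taken as 2, and neither is the genome build behind the annotation known. Of 33297 probe sets, 19460 carried exactly 1 symbol, 1754 several and 12083 none. Symbols were updated by Entrez number (19429 matched) with a RefSeq table of GRCh38.p14, which also gave chromosome and gene order, from which the arm was taken. The probe set with the highest mean was kept for each of 18417 genes. limma 3.58.1 in R 4.3.3 (lmFit, eBayes, two-sided, Benjamini-Hochberg over all genes, threshold 0.05) compared the groups. Its estimates were checked on simulated data with shifts larger than the median difference of the members. That check does not show whether differences of the members' size could be called. RMA pulls dim values together and makes many exactly equal. The number of arrays limits the precision.

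The members and the lists by role were chosen with earlier results of these data known. The rule for named genes takes the 10 lowest and the 10 highest differences, the 2 brightest members of each list, RAB31, RAB12, RAB27B, MYL12A, MYL12B, MLXIP and the 2 genes on each side of the level threshold. Other genes named were chosen after their values were seen. The values of 1 member are not reported here, and it stays in the counts and medians. Alternatives left out each array, used the replicate number as a block, normalised or centred the arrays again, averaged probe sets, weighted arrays (statmod 1.5.0), used robust moderation, dropped genes with a mean of 5 or less, or changed the threshold of the members.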

Additional observations from a re-analysis of the deposited data

How the results depend on the processing

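The median difference of the members was -0.41. It ran from -0.51 to -0.30 with 1 array left out and from -0.46 to -0.33 under every other alternative run. These included thresholds of 4 (126 genes) and 6 (81 genes, 81 lower). They also included the 85 members without tied values, chosen after seeing the data. The count of 75 separated members was 76 to 90 with 1 array left out. That count cannot fall when an array is dropped, so it does not measure stability. By limma 0 genes had an adjusted p under 0.05 (687 an unadjusted one). A second quantile normalisation gave 2 such genes and centring of the arrays 167, while leaving out 1 array gave 0 to 752, the highest without control array 1 and 454 without control array 2. The count of 0 members (40 lower at an unadjusted p under 0.05) came to 20 after centring and 0 to 1 with 1 array left out, the 1 being ABHD3 without control array 2. Members lower at that unadjusted p were 15 with the replicate block (against 1.84% of all genes), 67 after quantile normalisation (against 3.45%), 64 with array weights (against 3.7%) and 79 with centred arrays (against 3.87%). Centring takes a different constant from each array, so values that RMA had made equal no longer were. The prior degrees of freedom in limma came to 8.53, where the deposited values gave 0.56. The part of this in the calls was not tested. By limma, 11 of the 45 named genes passed with centred arrays, and none did under another alternative.

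The replicate numbers 1 and 2 are shared by the groups, but nothing in the labels links the clones. The deviations of same-numbered arrays from their group means correlated at -0.29 and -0.23 over all genes. With 2 controls, the deviations of control arrays 1 and 2 mirror each other, so these correlations are not separate checks. With the number as a replicate block, 104 members were lower with a median of -0.41, and 0 genes passed. That fit equals leaving out MondoA shRNA array 3 in its differences, and the count of separated members could not be formed in it. Leaving out 1 array moved the difference by over 1.5 times in 22 of the 45 named genes. Sign changes occurred in 8. With 1 array left out, NEDD4L ran from -0.17 to 0.0064, NDUFV2 from -0.13 to 0.0024, PTPN2 from -0.27 to 0.17, TXNL1 from -0.23 to 0.14 and NFATC1 from -0.022 to 0.0041. TUBB6 ran from -0.092 to 0.10, BOD1L2 from -0.0030 to 0.18 and MLXIP from -0.065 to 0.027. With the replicate block, NEDD4L was 0.0064 and MLXIP 0.027, and with array weights TUBB6 was 0.099.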
